A study of Mus musculus with 81 samples.

Results

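Nucleotide synthesis and salvage enzymes were followed through 39 genes, taken by symbol from the 54079 to 55450 genes listed in each count file. They formed 4 arms. The de novo arm held 18 genes (Prps1, Prps2, Ppat, Gart, Pfas, Paics, Adsl, Atic, Impdh1, Impdh2, Gmps, Adss, Adssl1, Cad, Dhodh, Umps, Ctps and Ctps2). The folate arm held 4 (Shmt1, Shmt2, Mthfd1 and Mthfd2), the salvage arm 8 (Hprt, Aprt, Gmpr, Gmpr2, Uprt, Uck1, Uck2 and Cmpk1) and the deoxynucleotide arm 9 (Rrm1, Rrm2, Rrm2b, Tyms, Dut, Dtymk, Tk1, Tk2 and Dck). All 39 passed the filter on low counts in each of the 5 experiments.

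Bulk RNA-seq was made from cells of mice that lack the histone variant H3.3 in the myeloid lineage (cKO, homozygous floxed for H3f3a and for H3f3b with LysM cre/cre) and of floxed mice without Cre (WT), on a C57BL/6 background, male and female, 8 to 10 weeks old. Every cKO animal carried 2 copies of the LysM-Cre knock-in, so Cre dosage and loss of Lyz2 cannot be told apart from loss of H3.3. The time course covered bone marrow progenitors on days 3 and 5 and bone marrow-derived macrophages (BMDMs) on day 7 of culture in L929-conditioned medium. Day 8 BMDMs were left untreated or given IFNγ for 12 h. The antibody experiment had BMDMs grown with no antibody, with an isotype control antibody or with an antibody that blocks IFNAR1, the type I interferon receptor, at 10 µg/mL from the start of culture, renewed every 12 h, until day 6. Resident peritoneal macrophages were compared without culture. Finally, 3 sets of WT and cKO BMDMs (sets 1, 2 and 3) were sequenced along with cKO BMDMs that in addition lacked Sting, Mavs or Irf7. Groups held 3 libraries, except the cKO groups of day 8, which held 2.

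A purine ring is built stepwise on phosphoribosyl pyrophosphate, which Prps1 and Prps2 make, and the enzymes from Ppat to Atic carry it to inosine monophosphate. Impdh1, Impdh2 and Gmps then lead to guanine nucleotides, and Adss and Adssl1 lead to adenine nucleotides. Cad, Dhodh and Umps make the pyrimidine uridine monophosphate, and the CTP synthases Ctps and Ctps2 turn UTP into CTP. Serine-derived folate carbon, handled by Shmt1, Shmt2, Mthfd1 and Mthfd2, feeds the purine ring and thymidylate. Salvage enzymes rebuild nucleotides from free bases and nucleosides, Hprt and Aprt for purines and Uck1 and Uck2 for uridine and cytidine. Ribonucleotide reductase (Rrm1 with Rrm2, or with the p53-inducible Rrm2b) makes deoxynucleotides, Tyms and Dut supply thymidylate, and Tk1, Tk2 and Dck phosphorylate deoxynucleosides. Rrm2, Tk1 and Tyms are known for rising in S phase. Macrophages leave the cell cycle as they mature.

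Promoters are shown for 4 members whose counts moved in the treatments described further on, 3 deoxynucleotide genes called higher in WT cells with the IFNAR1 antibody than with the control antibody (Rrm1, Rrm2 and Tyms) and the pyrimidine monophosphate kinase Cmpk1, which rose with IFNγ in WT cells. All 4 shown had a motif of those searched for below. Tk1, also called higher with the IFNAR1 antibody in WT cells, had none. Of the other members that rose with IFNγ in WT cells, Hprt and Dck had none and Mthfd2 had CCAAT boxes only. The sequences are from RefSeq on build GRCm38.p6 and lie upstream of the gene start, and capitals mark the motif found in each.
Rrm1, chr7:102441575-102441694, plus strand, with a CCAAT box 91 and another 45 bases before the start: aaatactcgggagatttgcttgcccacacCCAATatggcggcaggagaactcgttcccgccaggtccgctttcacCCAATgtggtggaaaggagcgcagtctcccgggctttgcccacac
Rrm2, chr12:24708134-24708240, plus strand, with a CCAAT box 50 bases before the start: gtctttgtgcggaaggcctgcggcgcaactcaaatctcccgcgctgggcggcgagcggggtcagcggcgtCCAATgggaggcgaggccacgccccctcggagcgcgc
Tyms, chr5:30073626-30073725, minus strand, with an E-box 61 bases before the start: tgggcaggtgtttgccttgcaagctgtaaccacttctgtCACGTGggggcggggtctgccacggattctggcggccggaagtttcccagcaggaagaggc
Cmpk1, chr4:114987242-114987398, minus strand, with interferon-type letters 163 and 106 bases before the start: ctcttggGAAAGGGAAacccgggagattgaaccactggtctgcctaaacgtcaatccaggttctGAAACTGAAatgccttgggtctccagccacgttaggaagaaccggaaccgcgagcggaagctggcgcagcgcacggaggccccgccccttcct

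Motifs were searched on both strands of windows from 250 bases before to 50 bases after the gene start, which 36 of the 39 members had in the RefSeq table, beside 27025 genes in all. The CCAAT box (CCAAT) was present in 14 of 36 members, 38.9%, and in 41.1% of all genes. An E-box (CACGTG) stood in 5 members, 13.9%, and in 8.09% of all genes. E2F-type letters (TTTGGCGC, TTTCGCGC or TTTCCCGC) were found in 2 members, Prps2 and Ppat, which is 5.56% against 2.12% of all genes. Interferon-type letters (GAAANNGAA) were found in Cmpk1 and in the thymidylate kinase Dtymk, 5.56% against 9.76%. Dtymk was called lower with IFNγ in both genotypes. These shares are descriptions of letters in a window and say nothing about binding.

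The 81 libraries held 3614967 to 45581528 counts in genes, and 79 could be placed in a group. The remaining 2, both of cKO day 8 replicate 3, have a title and a library name that disagree on IFNγ, and they entered no comparison. H3f3a, a targeted gene, was lower in every cKO library than in every WT library of the same experiment. It was at 0.553 to 14.6 against 32.5 to 81.4 counts per 1000000 counts in genes (CPM). H3f3b, the other targeted gene, overlapped between genotypes in the time course, in peritoneal cells and in the sets, with up to 380 CPM in cKO libraries. The CPM of the members and gene lists were scaled by TMM library factors, and those of H3f3a and H3f3b were not. All 8 macrophage markers were above 1 CPM in every group, day 3 included. Markers of myeloid progenitors, neutrophils, B cells and stroma were also present, and T cell markers summed to under 1 CPM outside the peritoneum. In bulk RNA, fewer cells of a type and less RNA per cell cannot be told apart. Differences are given as log2 fold changes (log2FC) with their standard error (SE) from edgeR's quasi-likelihood test, means with the SD over libraries, and a gene is called where its Benjamini-Hochberg adjusted p over all genes tested is under 0.05.

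Levels per kilobase were taken over all annotated exons of a gene merged. This length, 11012 bases for Rrm1, can exceed that of the transcript expressed, so the order between genes depends on the annotation. On this scale, the purine salvage enzymes Aprt and Hprt stood at the top in untreated WT cells on days 3 and 8. On day 3, Aprt was at 156 and Hprt at 111 CPM per kilobase, followed by Adssl1 at 61.7, Rrm2 at 60.2, Paics at 47.4 and Cmpk1 at 40.1. The lowest were the pyrimidine enzyme Dhodh at 2.80 and Rrm2b at 1.16. On day 8, Hprt led at 131, above Aprt at 57.8, Paics at 51.8 and Rrm2 at 46.4, and Rrm2b was again lowest at 1.18. In the WT peritoneum Hprt led at 108 as well, but Aprt was at 21.6, below Adssl1 at 105 and Cmpk1 at 37.9. In summed CPM on day 3, WT libraries spent 1427 ± 84.3 on the de novo arm, 706.6 ± 105 on the deoxynucleotide arm, 705.1 ± 23.6 on salvage and 199.7 ± 30.0 on the folate arm.

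On day 3, cKO progenitors held less of several purine enzymes than WT. Of 39 members, 31 had a negative log2FC, with a median of -0.29 beside 0.04 over all 15955 genes tested. The members called were 5, all lower in cKO, which were Paics, Adssl1 and Prps2 of the de novo arm and Gmpr and Uprt of the salvage arm. Over all genes, 6.0% were called higher and 2.64% lower. The median log2FC was -0.32 in the de novo arm, where 17 of 18 members were negative, -0.26 in salvage, -0.20 in the deoxynucleotide arm and 0.19 in the folate arm.

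Paics, which carries the carboxylase and the following synthetase step of the purine ring, was at 172, 146 and 129 CPM in WT replicates 1, 2 and 3 and at 95.4, 87.2 and 96.97 in cKO (log2FC -0.67, SE 0.14, adjusted p = 0.00716). Gmpr, the GMP reductase that returns guanine to inosine nucleotides, was at 12.3, 9.85 and 10.1 in WT and at 4.84, 7.32 and 5.65 in cKO (-0.86, SE 0.16, adjusted p = 0.00289). Adssl1, the muscle-type adenylosuccinate synthase, was at 118, 128 and 141 in WT and at 74.8, 81.0 and 69.2 in cKO (-0.78, SE 0.20, adjusted p = 0.0219). The WT and cKO libraries of these 3 genes did not overlap. Uprt, named for uracil salvage, was at 26.5, 29.7 and 23.5 in WT and at 17.5, 17.8 and 18.8 in cKO, again without overlap (-0.56, SE 0.15, adjusted p = 0.0258). Prps2 ranged from 28.4 to 44.0 in WT and from 21.8 to 28.5 in cKO, which overlap (-0.50, SE 0.15, adjusted p = 0.0495).

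The S phase enzymes were not called by edgeR on day 3. Tk1 was at 89.0, 74.7 and 49.1 CPM in WT and at 41.6, 31.8 and 36.3 in cKO (log2FC -0.96, SE 0.32, adjusted p = 0.0786). Impdh1, the first enzyme on the guanine branch, was at 103, 71.3 and 75.0 in WT and at 46.3, 47.2 and 45.9 in cKO (-0.84, SE 0.28, adjusted p = 0.0742). Neither gene overlapped between genotypes. DESeq2 called Tk1 (adjusted p = 0.0379) and Impdh1 (adjusted p = 0.0418) lower, the edgeR fit on the day 3 groups alone called both as well as Rrm1 and Rrm2 lower, and without WT replicate 3 Tk1 was called (adjusted p = 0.0472). Rrm1 (-0.44, SE 0.30), Rrm2 (-0.39, SE 0.39) and Tyms (-0.31, SE 0.34) were likewise negative with adjusted p of 0.422, 0.6 and 0.649. Rrm2b, the p53-inducible subunit, was at 11.5 ± 0.905 in cKO and 10.6 ± 0.579 in WT (0.13, SE 0.15, adjusted p = 0.668). Dck, which phosphorylates deoxycytidine and is named here after its values were seen, went the other way, at 133, 135 and 150 in cKO and 89.4, 76.7 and 64.3 in WT (0.86, SE 0.32, adjusted p = 0.118).

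The proliferation genes moved with these values. All 24 of a list of replication and mitosis genes had a negative log2FC on day 3 (median -0.40) with none called, and their summed level was 2401 to 2516 CPM in cKO and 2792 to 3705 in WT. Myeloid progenitor markers summed to 877 to 1277 CPM in cKO and 479 to 807 in WT, neutrophil markers to 2406 to 3675 and 1571 to 2919, and 14 of 14 interferon-stimulated genes were called higher in cKO, as on day 5, while on day 7 none was. Their part in the lower enzyme counts was not tested. Same-numbered libraries of WT and cKO deviated together, with correlations of 0.42, 0.13 and 0.25, although cKO replicate 2 matched WT replicate 3 best. With the replicate number as a block, Prps2 was lost (adjusted p = 0.052) and Dck was called higher (log2FC 0.89, adjusted p = 0.0461). The call of Prps2 also ended without WT replicate 1 or 2 or without any cKO replicate, Uprt fell under the same omissions and Adssl1 without WT replicate 2 or cKO replicate 1 or 3, which left 2 or 3 members called. Paics and Gmpr were called in each of these fits. Fitted on the day 3 groups alone, 17 members were called, 16 of them lower. The shares of all genes given for day 3 are of the fit of all groups and do not apply to this count.

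On day 5 Gmpr was the single member called, while 2.46% of all genes were called higher and 0.658% lower. Gmpr was at 12.0, 11.1 and 12.8 CPM in WT and at 5.92, 7.41 and 6.95 in cKO, without overlap (log2FC -0.82, SE 0.15, adjusted p = 0.00944). Its call ended without WT replicate 3, without cKO replicate 1 and in the fit on the day 5 groups alone. Myeloid progenitor markers summed to 186 to 473 CPM in cKO and 58.6 to 90.4 in WT, and stromal markers to 68.2 to 96.5 and 13.2 to 42.9. The library cKO replicate 1 stood apart, with interferon-stimulated genes at 4620 CPM against 681 and 819 in the other cKO libraries and neutrophil markers at 1590 against 626 and 477. The part of these lists in the Gmpr values was not tested, and neither was the change from day 3 to day 5. The median over all 39 members was 0.10, with 27 positive. Paics was at 133 ± 6.70 in cKO and 144 ± 3.22 in WT (-0.11, SE 0.14, adjusted p = 0.77). For Tk1 (-0.37, SE 0.31), Impdh1 (-0.25, SE 0.28), Adssl1 (-0.40, SE 0.20) and Uprt (-0.06, SE 0.15) adjusted p lay between 0.396 and 0.891. Among the deoxynucleotide genes, Rrm1 (-0.01, SE 0.30), Rrm2 (0.06, SE 0.38), Rrm2b (-0.20, SE 0.15) and Tyms (0.15, SE 0.34) overlapped between genotypes.

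On day 7 no member was called by edgeR, against 1.82% of all genes. An unadjusted p under 0.05 was found for 2 of 39 members and 2653 of 15955 genes. DESeq2 called 2 members lower, Gmpr and the mitochondrial thymidine kinase Tk2. Gmpr was at 13.7, 12.7 and 12.9 CPM in WT and 8.06, 9.37 and 9.02 in cKO, still apart (log2FC -0.57, SE 0.15, adjusted p = 0.0692). The other genes followed through the course were Tk1 (-0.01, SE 0.31), Impdh1 (-0.07, SE 0.28), Adssl1 (-0.26, SE 0.20), Uprt (0.03, SE 0.15), Paics (-0.19, SE 0.14), Rrm1 (0.32, SE 0.30), Rrm2 (0.64, SE 0.39), Rrm2b (0.19, SE 0.15) and Tyms (0.44, SE 0.34), all overlapping between genotypes. Myeloid progenitor markers summed to 34.5 to 82.7 CPM in cKO and 5.11 to 11.8 in WT, and stromal markers to 87.9 to 126 and 4.59 to 41.3. B cell markers were lower in cKO, at 14.3 to 56.4 against 57.8 to 193. The part of these lists in the enzyme values was not tested. The WT libraries were unlike each other. WT replicate 1 held 94.8 CPM of Impdh1 against 31.1 and 54.3 in replicates 2 and 3, 95.3 of Adssl1 against 52.9 and 52.4, and 136 of Aprt against 56.0 and 65.7, with interferon-stimulated genes at 1946 against 612 and 420. WT replicate 2 held 72.9 CPM of Rrm1 against 277 and 235 in replicates 1 and 3, 24.3 of Rrm2 against 139 and 108, and 2.24 of Ctps against 23.4 and 16.03. Its 24 proliferation genes summed to 1178 CPM, against 3692 in the highest WT library and 3334 to 3860 in cKO. The median of the deoxynucleotide arm was 0.31 with WT replicate 2 and -0.07 without it. Without WT replicate 1, Dck and Tk2 were called, and without WT replicate 3 Tk2 was.

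**Figure D1:**
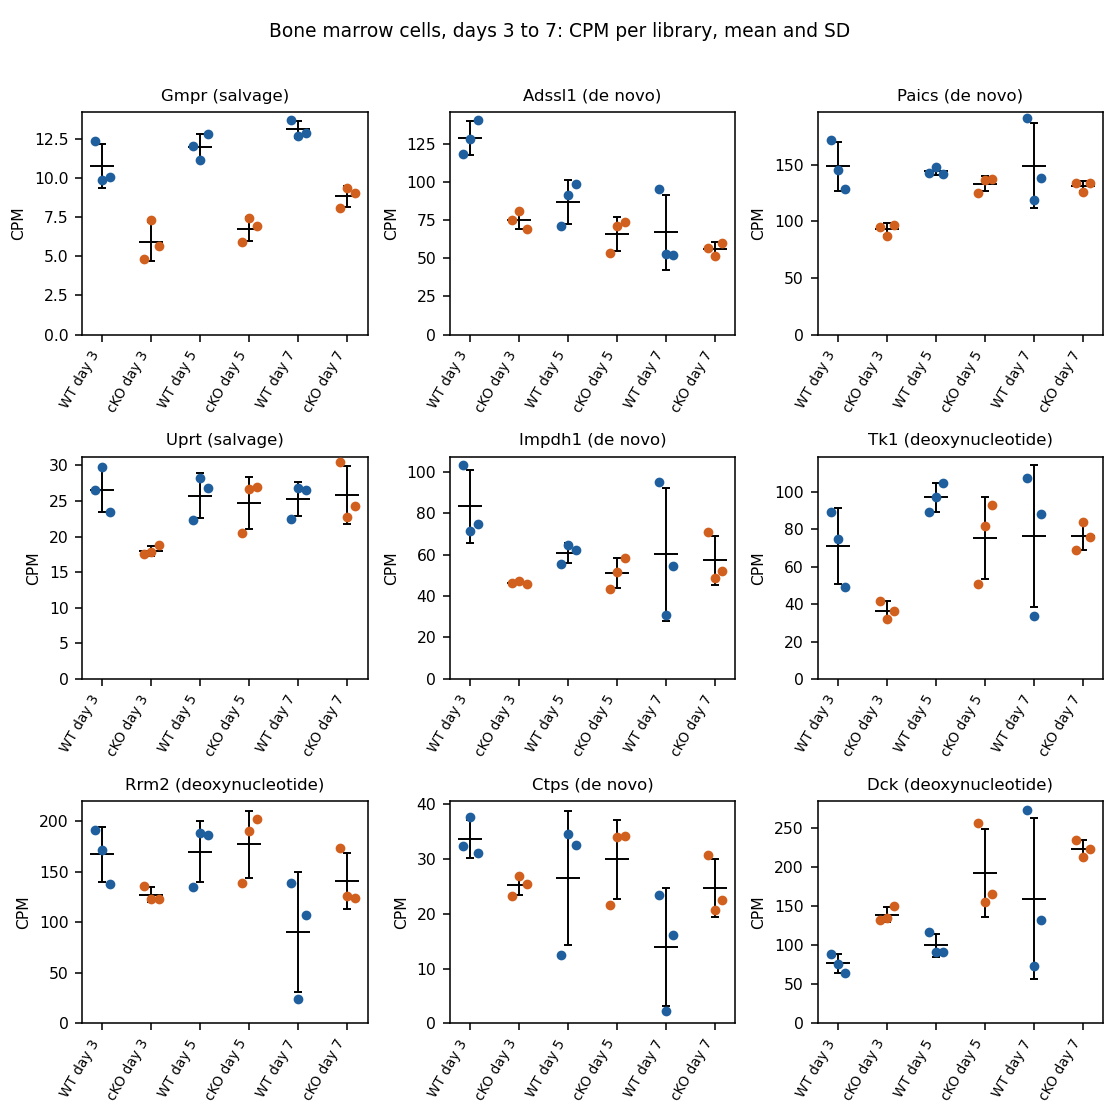
CPM (vertical axis, from 0) of 9 members on days 3, 5 and 7 of culture (horizontal axis), with blue points for WT libraries, orange points for cKO libraries and black marks for the group mean and SD (n = 3). Gmpr is lower in all cKO libraries than in all WT libraries on each day, Paics and Adssl1 are apart on day 3 and overlap by day 7, and 1 WT library of day 7 is far below the others for Rrm2 and Ctps.

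Over time, no member was called in WT cells. Between days 3 and 5, edgeR called 0 of 39 in WT against 2.91% of all genes. An unadjusted p under 0.05 was found for 4 members and 3316 of 15955 genes. DESeq2 called Aprt and Adss lower. Aprt was at 258, 232 and 265 CPM on day 3 and 83.8, 135 and 133 on day 5 (log2FC -1.10, SE 0.31, adjusted p = 0.0693). Between days 5 and 7, edgeR called 0 in WT against 0.15% of all genes, and DESeq2 called Tk2 higher. An unadjusted p under 0.05 was found for 5 members and 2777 of 15955 genes. The edgeR count became 1 without WT day 5 replicate 1 (Uck2, lower) or WT day 7 replicate 1 (Tk2, higher), and 2 without WT day 7 replicate 3. In cKO cells, Prps2 and Paics rose from day 3 to day 5, while 1.61% of all genes were called higher and 3.28% lower. Prps2 went from 28.5, 21.8 and 28.1 to 42.3, 45.5 and 51.1 (0.82, SE 0.15, adjusted p = 0.00528). Paics went from 95.4, 87.2 and 96.97 to 126, 136 and 138 (0.52, SE 0.14, adjusted p = 0.0496). Both groups were apart on both genes. The call of Paics ended without any one of the 3 cKO day 3 libraries and without cKO day 5 replicate 2 or 3, which left 1 member, and without cKO day 5 replicate 1 Tk1 and Uprt were called as well, which made 4. All 24 proliferation genes had a positive log2FC in the same comparison, with 3 called. Between days 5 and 7, 0 members were called in cKO against 0.0501% of all genes, and 0 by DESeq2. An unadjusted p under 0.05 was found for 1 member and 845 of 15955 genes.

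The change of the genotype difference between days 3 and 7 was tested as an interaction. It called 0 members by edgeR, against 0.0439% of all genes, and Tk2 by DESeq2. An unadjusted p under 0.05 was found for 6 of 39 members and 2491 of 15955 genes. All 18 de novo members had a positive interaction (median 0.53), and 33 of all 39 did (median 0.48, beside -0.04 over all genes). The proliferation list was positive in 24 of 24. Without WT day 7 replicate 1, Paics and Tk2 were called, and without WT day 7 replicate 3 Tk2 was.

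**Figure D2:**
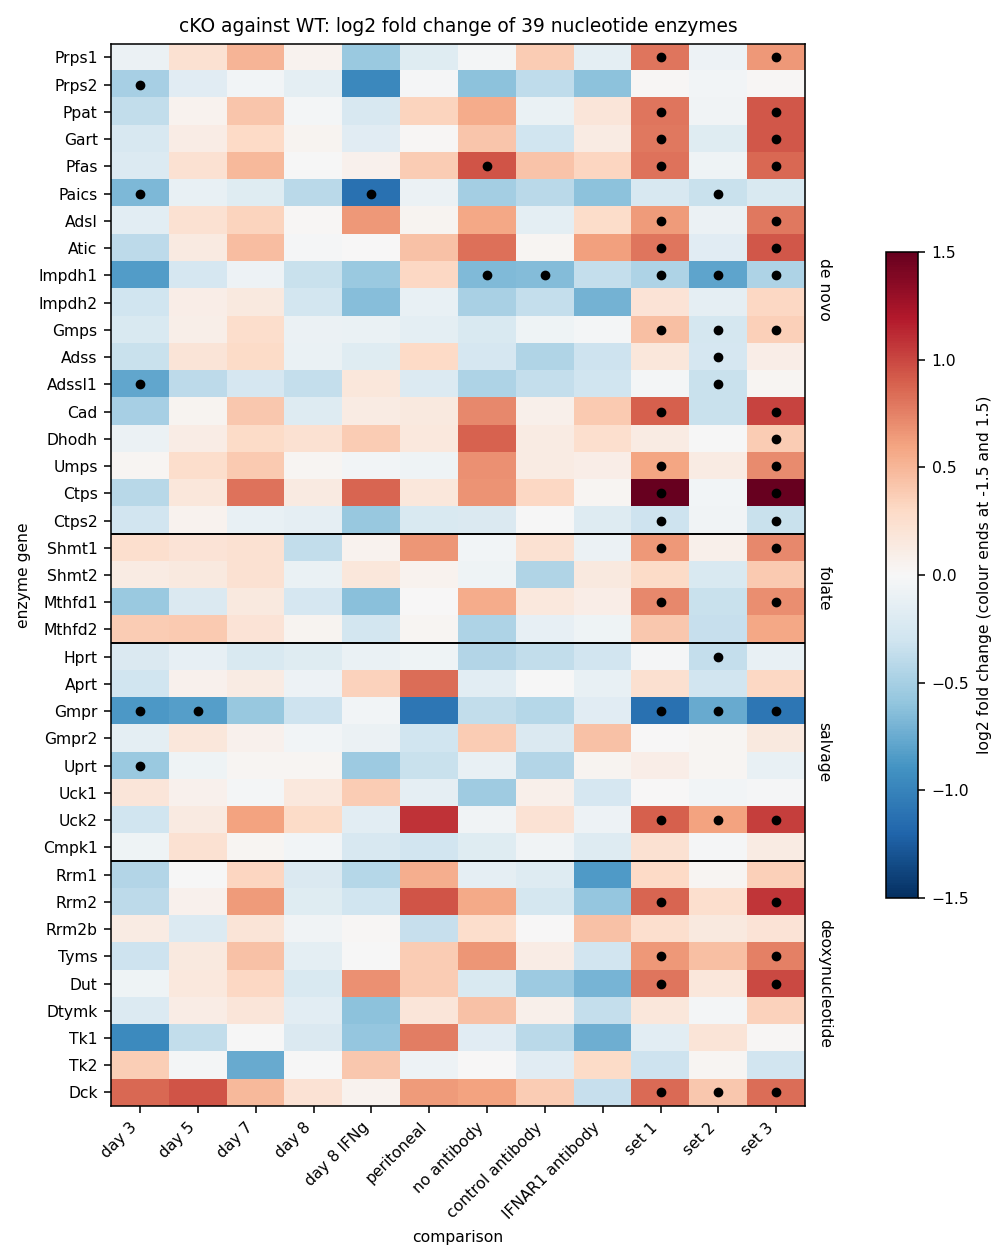
Log2 fold change of cKO over WT (colour) for each of the 39 members (rows, by arm) in the 12 genotype comparisons (columns), with a mark on cells called at an adjusted p under 0.05. The fitted values of Gmpr and Paics are negative in all 12 columns, and the columns of sets 1 and 3 hold most of the called positive values.

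In untreated day 8 BMDMs, no member was called between genotypes. By edgeR the count was 0 of 39 against 0.658% of all genes, and DESeq2 also called 0. An unadjusted p under 0.05 was found for 0 members and 793 of 13075 genes. Paics is named here for its place in the other comparisons. It was at 119 and 127 CPM in the 2 cKO libraries and 150, 163 and 175 in WT (log2FC -0.40, SE 0.19, adjusted p = 0.895).

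IFNγ for 12 h lowered most of the de novo arm. In WT cells, 28 members fell and 4 rose, while 19.3% of all genes were called lower and 19.5% higher. The fall covered 16 of 18 de novo genes (median log2FC -1.17), 3 of 4 folate genes (-0.85), 2 of 8 salvage genes (-0.13) and 7 of 9 deoxynucleotide genes (-1.18), beside a median of -0.01 over all 13075 genes tested. The de novo genes not called were Gmps (-0.25, SE 0.13, adjusted p = 0.17) and Ctps2 (0.03, SE 0.23, adjusted p = 0.932). The summed de novo arm went from 946 to 1018 CPM in untreated WT libraries to 395 to 473 with IFNγ.

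In WT cells, Ctps showed the largest de novo fall, from 21.4, 20.1 and 19.8 CPM to 3.11, 2.68 and 2.65 (log2FC -2.85, SE 0.49, adjusted p = 0.00128). Adssl1 fell from 57.3, 81.2 and 68.2 to 16.6, 9.23 and 19.2 (-2.20, SE 0.26, adjusted p = 0.000138). Cad, which opens the pyrimidine pathway, fell from 74.2, 58.4 and 76.3 to 15.7, 15.5 and 15.9 (-2.15, SE 0.33, adjusted p = 0.000668). No treated library of these genes reached an untreated one. In the folate arm, Mthfd1 fell from 48.7 ± 0.158 to 12.1 ± 2.73 (-2.003, SE 0.23), Shmt2 from 49.5 ± 2.66 to 24.8 ± 6.32 (-0.996, SE 0.28) and Shmt1 from 9.22 ± 1.20 to 5.66 ± 0.744 (-0.70, SE 0.19). Mthfd2, the mitochondrial folate enzyme, rose instead, from 55.1, 49.1 and 52.6 to 98.5, 93.3 and 87.1 (0.83, SE 0.20, adjusted p = 0.00735).

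The salvage arm moved both ways in WT cells. Gmpr fell from 7.57, 9.13 and 9.45 CPM to 1.61, 1.34 and 0.964 (log2FC -2.73, SE 0.26, adjusted p = 3.38e-05) and Uck2 from 41.5, 32.7 and 42.4 to 7.72, 5.21 and 7.11 (-2.53, SE 0.31, adjusted p = 0.000166). Hprt, the main purine salvage enzyme, rose from 159, 170 and 177 to 246, 244 and 255 (0.56, SE 0.13, adjusted p = 0.00735). Cmpk1 rose from 140, 148 and 148 to 213, 181 and 221 (0.50, SE 0.12, adjusted p = 0.00825). All 4 were without overlap between treated and untreated libraries.

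Among deoxynucleotide genes of WT cells, Dut fell from 33.9, 23.6 and 35.0 CPM to 5.57, 4.91 and 6.26 (log2FC -2.46, SE 0.42, adjusted p = 0.00129). Rrm2 fell from 167, 69.5 and 149 to 33.3, 14.1 and 27.6 (-2.36, SE 0.39, adjusted p = 0.00111) and Tyms from 39.1, 17.7 and 38.9 to 12.9, 6.40 and 9.88 (-1.71, SE 0.36, adjusted p = 0.00396). Replicate 2 was the lowest of both the treated and the untreated WT libraries in these genes. Dck was the single gene of the arm that rose, from 172, 126 and 153 to 329, 309 and 293 (1.05, SE 0.24, adjusted p = 0.00592). Of the 24 proliferation genes 10 were called lower, 6 of them Mcm helicase genes, and the list's sum went from 2126 to 3397 CPM to 1183 to 2044. The part of proliferation in these changes was not tested.

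In cKO cells, IFNγ lowered 24 members and raised 2 (Hprt and Dck), while 16.4% of all genes were called lower and 17.5% higher. De novo genes called lower numbered 14 of 18 (median log2FC -1.62), folate genes 1 of 4 (-0.50), salvage genes 3 of 8 (-0.09) and deoxynucleotide genes 6 of 9 (-1.55). Gart, a purine enzyme with 3 activities, fell from 56.7 and 63.5 CPM to 16.3 and 8.95 (-2.30, SE 0.27, adjusted p = 0.000188), Umps from 35.7 and 34.4 to 11.5 and 4.71 (-2.22, SE 0.40, adjusted p = 0.00224) and Ctps from 22.3 and 22.7 to 10.9 and 1.53 (-2.12, SE 0.62, adjusted p = 0.0245). Mthfd1 fell from 39.3 and 42.2 to 10.9 and 5.65 (-2.38, SE 0.30, adjusted p = 0.00034).

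In the salvage arm of cKO cells, Uck2 fell from 41.9 and 53.3 CPM to 9.66 and 3.53 (log2FC -2.99, SE 0.41, adjusted p = 0.000482), Gmpr from 6.49 and 7.63 to 1.81 and 1.06 (-2.46, SE 0.36, adjusted p = 0.000674) and Uprt from 25.1 and 24.0 to 10.9 and 16.5 (-0.81, SE 0.21, adjusted p = 0.0137). Hprt rose from 144 and 153 to 263 and 199 (0.64, SE 0.16, adjusted p = 0.0128). Rrm2 fell from 117 and 109 to 27.2 and 14.5 (-2.47, SE 0.49, adjusted p = 0.00401), Tk1 from 58.5 and 65.3 to 20.5 and 17.6 (-1.71, SE 0.29, adjusted p = 0.00152) and Dtymk from 30.9 and 30.9 to 7.25 and 12.0 (-1.63, SE 0.25, adjusted p = 0.000942). Dck rose from 181 and 169 to 208 and 436 (0.88, SE 0.29, adjusted p = 0.0386), with the treated replicates far apart. The calls of Ctps, Dck and Hprt were among those lost without untreated cKO replicate 2, a fit that leaves 1 library in that group. The proliferation list had 14 of 24 called lower.

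The 2 treated cKO libraries were unlike each other, and replicate 1 was the smallest of all placed libraries with 3614967 counts. In replicate 1, 57.1% of reads were unmapped, against 12.6% in replicate 2, and stromal markers summed to 344 CPM against 54.4. Their part in the values was not tested. The difference of the IFNγ response between genotypes called 0 members by edgeR, against 0.0% of all genes, and 0 by DESeq2. An unadjusted p under 0.05 was found for 1 member and 1206 of 13075 genes. Leaving out either treated cKO library leaves 1 in that group, so the spread then comes from the other groups alone. Calls of such fits are not taken as results. Between genotypes under IFNγ, Paics alone was called, at 32.6 and 49.9 CPM in cKO and 97.2, 76.4 and 97.4 in WT (log2FC -1.12, SE 0.20, adjusted p = 0.0167), while 1.89% of all genes were called lower and 3.59% higher. That call, 2.56% of the 39 members, ended without treated WT replicate 1 or 3, with the replicate block and in the fit on these groups alone. With 1 treated cKO library left, Cad was lower in cKO without replicate 1 (log2FC -0.86) and higher without replicate 2 (0.76). If the 2 libraries with conflicting labels were placed by their titles, 0 members were called for IFNγ in either genotype, and if placed by their library names, 32 in WT and 30 in cKO.

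**Figure D3:**
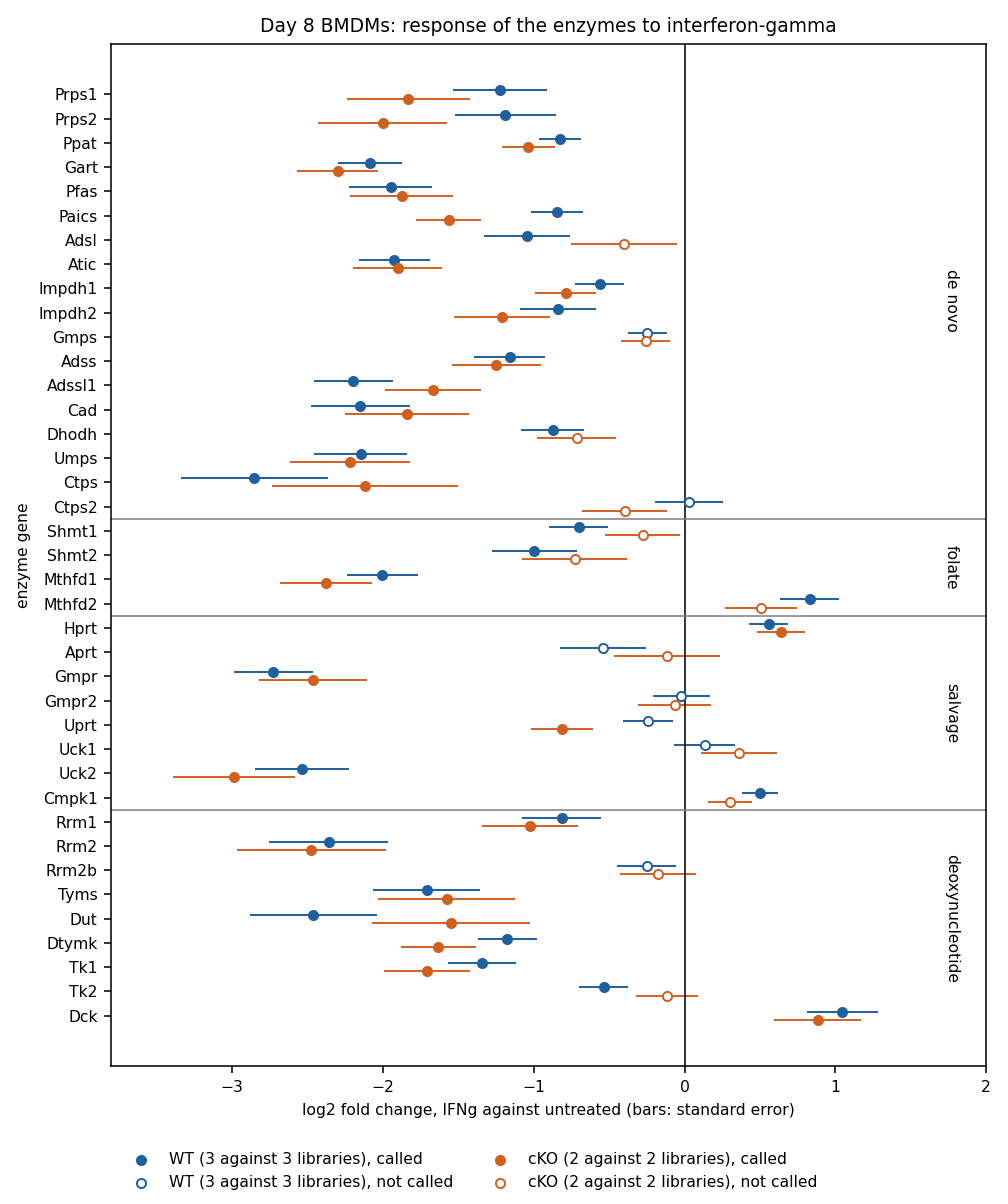
Log2 fold change of IFNγ over untreated (horizontal axis) with its standard error for the 39 members (vertical axis, by arm) in day 8 WT cells (blue, n = 3 and 3) and cKO cells (orange, n = 2 and 2). Filled points are called and open points are not. Most de novo and deoxynucleotide genes lie below 0 in both genotypes, while Hprt and Dck lie above it in both.

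In peritoneal macrophages edgeR called no member between genotypes. The count was 0 of 39 against 1.06% of all 12361 genes tested. An unadjusted p under 0.05 was found for 3 members and 1189 genes. Aprt, called higher by DESeq2 (adjusted p = 0.00429), without the filter on low counts (adjusted p = 0.0129) and without WT replicate 1 (adjusted p = 0.0455), was at 63.7, 70.1 and 52.8 CPM in cKO and 39.3, 33.7 and 31.4 in WT (log2FC 0.84, SE 0.18, adjusted p = 0.0842). Rrm2 was called higher without the filter (log2FC 0.96, adjusted p = 0.00175) and not with it (0.94, SE 0.40, adjusted p = 0.509). All 24 proliferation genes had a positive log2FC, with none called, and summed to 752.2 to 1584 in cKO and 596 to 993.8 in WT. Gmpr was low, at 0.590 ± 0.393 in cKO and 1.32 ± 0.901 in WT, and Uck2 gave as little as 1 count in a library.

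Peritoneal cells and BMDMs came from different experiments, and the study's methods and the labels name different library kits for the former, so tissue and library preparation cannot be told apart and the levels are only set side by side. The genes named here were chosen after their values were seen. In WT cells, Uck2 was at 0.510 ± 0.352 CPM in the peritoneum and 38.9 ± 5.34 on day 8, Uprt at 1.62 ± 0.409 and 24.1 ± 2.14, Pfas at 4.77 ± 0.291 and 65.0 ± 6.90, and Mthfd2 at 8.80 ± 2.32 and 52.3 ± 3.02. The opposite order was found for Adssl1, at 220 ± 60.7 and 68.9 ± 11.9, Ctps2 at 146 ± 6.88 and 49.9 ± 3.05, Impdh1 at 118 ± 22.6 and 49.7 ± 4.47, and Prps1 at 44.9 ± 5.63 and 15.6 ± 2.35. Per kilobase, Ctps2 was at 30.9 and Ctps at 2.61 in the WT peritoneum, and at 10.6 and 6.16 on day 8. Markers of large peritoneal macrophages summed to 7226 to 9194 CPM in the peritoneum.

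In the antibody experiment, Rrm1, the large subunit of ribonucleotide reductase, was lower with the control antibody than with no antibody or with the IFNAR1 antibody. Against no antibody, WT cells with the control antibody had 3 members lower, 7.69% of the 39, a share near that of all genes. Over all genes, 5.96% were called lower and 3.78% higher. In those WT cells Rrm1 was at 109, 93.7 and 89.4 CPM with no antibody and 61.5, 31.8 and 32.0 with the control antibody (log2FC -1.22, SE 0.30, adjusted p = 0.0211). Mthfd2 went from 157, 201 and 182 to 118, 95.7 and 105 (-0.76, SE 0.15, adjusted p = 0.00836) and Gmps from 58.4, 63.1 and 57.5 to 49.2, 44.4 and 44.7 (-0.37, SE 0.11, adjusted p = 0.0411). The groups did not overlap on these 3 genes. Same-numbered libraries deviated together here, and with the replicate block 5 members were lower, the additional ones being Tk1 (-0.89, adjusted p = 0.0257) and Dck (-0.90, adjusted p = 0.00584). The count was 0 without control antibody replicate 2, 1 (Mthfd2) without control antibody replicate 3 or without no antibody replicate 2 or 3, and 6 without no antibody replicate 1, of which 3 were higher (Atic, Gart and Umps).

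In cKO cells, the control antibody lowered Rrm1 from 95.5, 103 and 67.1 CPM to 49.97, 26.6 and 31.1 (log2FC -1.28, SE 0.30, adjusted p = 0.0394) and Rrm2 from 66.0, 75.8 and 46.7 to 30.4, 19.3 and 14.7 (-1.52, SE 0.35, adjusted p = 0.0395). These were the 2 members called, while 0.919% of all genes were called lower and 1.17% higher. Neither gene overlapped between the groups. Both calls ended without no antibody replicate 1 or 2 or without control antibody replicate 2 or 3. Control antibody replicate 2 was the smallest library of the experiment, with 5295144 counts. Proliferation genes were lower with the control antibody too, 14 of 24 called in WT and 5 in cKO. In cKO cells, stromal markers summed to 164 to 306 CPM with the control antibody, 36.6 to 79.0 with no antibody and 42.4 to 87.2 with the IFNAR1 antibody, and neutrophil markers to 104 to 213 with the control antibody and 73.9 to 96.5 with no antibody. The part of these lists in the enzyme values was not tested.

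Against the control antibody, WT cells with the IFNAR1 antibody had 8 members higher and none lower, while 7.38% of all genes were called higher and 3.84% lower. The 4 deoxynucleotide members were Rrm1, at 153, 174 and 99.5 CPM against 61.5, 31.8 and 32.0 (log2FC 1.76, SE 0.30, adjusted p = 0.00333), Rrm2, at 84.5, 88.7 and 69.1 against 41.4, 17.95 and 19.8 (1.61, SE 0.35, adjusted p = 0.0108), Tk1, at 48.7, 60.2 and 33.3 against 21.1, 16.4 and 14.7 (1.44, SE 0.31, adjusted p = 0.0108), and Tyms, at 11.3, 12.99 and 15.7 against 9.03, 4.76 and 6.41 (0.99, SE 0.28, adjusted p = 0.0364). In the folate arm, Shmt1 was at 10.5 ± 4.93 against 4.93 ± 0.864 (1.08, SE 0.32, adjusted p = 0.0424) and Mthfd2 at 147 ± 22.2 against 106 ± 11.3 (0.47, SE 0.15, adjusted p = 0.0476). In the de novo arm, Impdh2 was at 37.6 ± 15.4 against 19.8 ± 1.68 (0.92, SE 0.27, adjusted p = 0.0384) and Paics at 150 ± 52.4 against 81.2 ± 6.90 (0.88, SE 0.21, adjusted p = 0.0184). The groups did not overlap on any of the 8. In WT cells the 14 interferon-stimulated genes summed to 91.1 to 176 CPM with no antibody. They summed to 63.7 to 67.4 with the control antibody and 48.4 to 61.0 with the IFNAR1 antibody. Against no antibody, 6 of the 14 were called lower with the control antibody. With the IFNAR1 antibody, 1 was called lower than with the control antibody. Their part in the enzyme values was not tested.

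Those 8 calls depended on single libraries. Without control antibody replicate 2 or 3, Rrm1 alone was called, and without control antibody replicate 1 the count was 5. Without IFNAR1 antibody replicate 1 or 2 it was 3 (Rrm1, Rrm2 and Tk1). Without IFNAR1 antibody replicate 3 it was 22, 13 higher and 9 lower, with no share of all genes given for that fit. That replicate lay apart from the other 2 in the purine genes, with Gart at 42.5 CPM against 21.99 and 21.6, and Atic at 60.4 against 26.3 and 33.0. Of the proliferation genes, 18 of 24 were called higher. In cKO cells, Mthfd2 (log2FC 0.54, SE 0.15, adjusted p = 0.0476), Rrm1 (1.11, SE 0.30, adjusted p = 0.0442) and Rrm2 (1.30, SE 0.35, adjusted p = 0.0468) were higher with the IFNAR1 antibody, while 2.44% of all genes were called higher and 2.25% lower. Rrm1 was at 93.8, 83.0 and 58.9 with the IFNAR1 antibody and 49.97, 26.6 and 31.1 with the control antibody, and Rrm2 at 69.2, 57.2 and 35.5 and 30.4, 19.3 and 14.7, without overlap. All 3 calls ended without control antibody replicate 2 or 3 or IFNAR1 antibody replicate 1 or 2, with 0, 0, 1 and 0 members called, and 5 were called without IFNAR1 antibody replicate 3. Proliferation genes were called higher in 11 of 24. The interferon-stimulated genes of cKO cells summed to 284 to 459 CPM with the control antibody and 221 to 320 with the IFNAR1 antibody. Of the 14, 4 were called lower and 1 higher.

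The comparisons of the IFNAR1 antibody and of no antibody share the control antibody libraries, so they are not independent. The levels themselves were, for Rrm1 in WT cells, 97.3 ± 10.1 CPM with no antibody, 41.8 ± 17.1 with the control antibody and 142 ± 38.3 with the IFNAR1 antibody, and in cKO cells 88.5 ± 18.96, 35.9 ± 12.4 and 78.6 ± 17.9. The purine enzymes Gart and Atic, named after their values were seen, went the other way in WT cells without being called by edgeR, from 28.0 ± 9.45 and 38.1 ± 10.1 with no antibody to 50.9 ± 0.600 and 74.4 ± 3.89 with the control antibody (adjusted p = 0.0529 and 0.0747). DESeq2 called both higher (log2FC 0.85, adjusted p = 0.0215 for Gart and 0.96, adjusted p = 0.037 for Atic), as did edgeR without no antibody replicate 1 (1.17, adjusted p = 0.0171 and 1.18, adjusted p = 0.0464). The difference of the IFNAR1 antibody response between genotypes called 0 members by edgeR, against 0.0% of all genes, and 0 by DESeq2. An unadjusted p under 0.05 was found for 1 member and 990 of 17191 genes.

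Between genotypes, Impdh1 was lower in cKO with no antibody and with the control antibody. With no antibody it was at 58.8, 49.9 and 45.9 CPM in cKO and 69.6, 86.0 and 89.7 in WT (log2FC -0.66, SE 0.16, adjusted p = 0.0222), and Pfas, a purine ring enzyme, was higher in cKO, at 46.1, 56.3 and 53.1 against 30.4, 21.9 and 28.5 (0.95, SE 0.26, adjusted p = 0.035). Over all genes 4.15% were called lower and 4.01% higher there, while the members had 2.56% called in each direction, below these shares. With the control antibody Impdh1 was at 47.0, 45.2 and 27.8 in cKO and 62.4, 59.5 and 67.6 in WT (-0.66, SE 0.17, adjusted p = 0.0317), while 1.68% of all genes were called lower and 3.43% higher. The call with the control antibody was 2.56% of the 39 members. WT and cKO were apart in each case. With no antibody both calls ended without WT replicate 2 or 3 or cKO replicate 2 or 3, Pfas was lost without cKO replicate 1, and 7 members were called without WT replicate 1. With the control antibody, the call of Impdh1 ended without any WT replicate or without cKO replicate 3. With the control antibody groups fitted alone 10 members were called, with no share of all genes given for that fit. With the IFNAR1 antibody, edgeR called 0 members against 0.698% of all genes, and DESeq2 called 0. An unadjusted p under 0.05 was found for 9 of 39 members and 2067 of 17191 genes. Without WT replicate 3, 4 members were called. All 24 proliferation genes had a negative log2FC there (median -0.84), with none called.

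**Figure D4:**
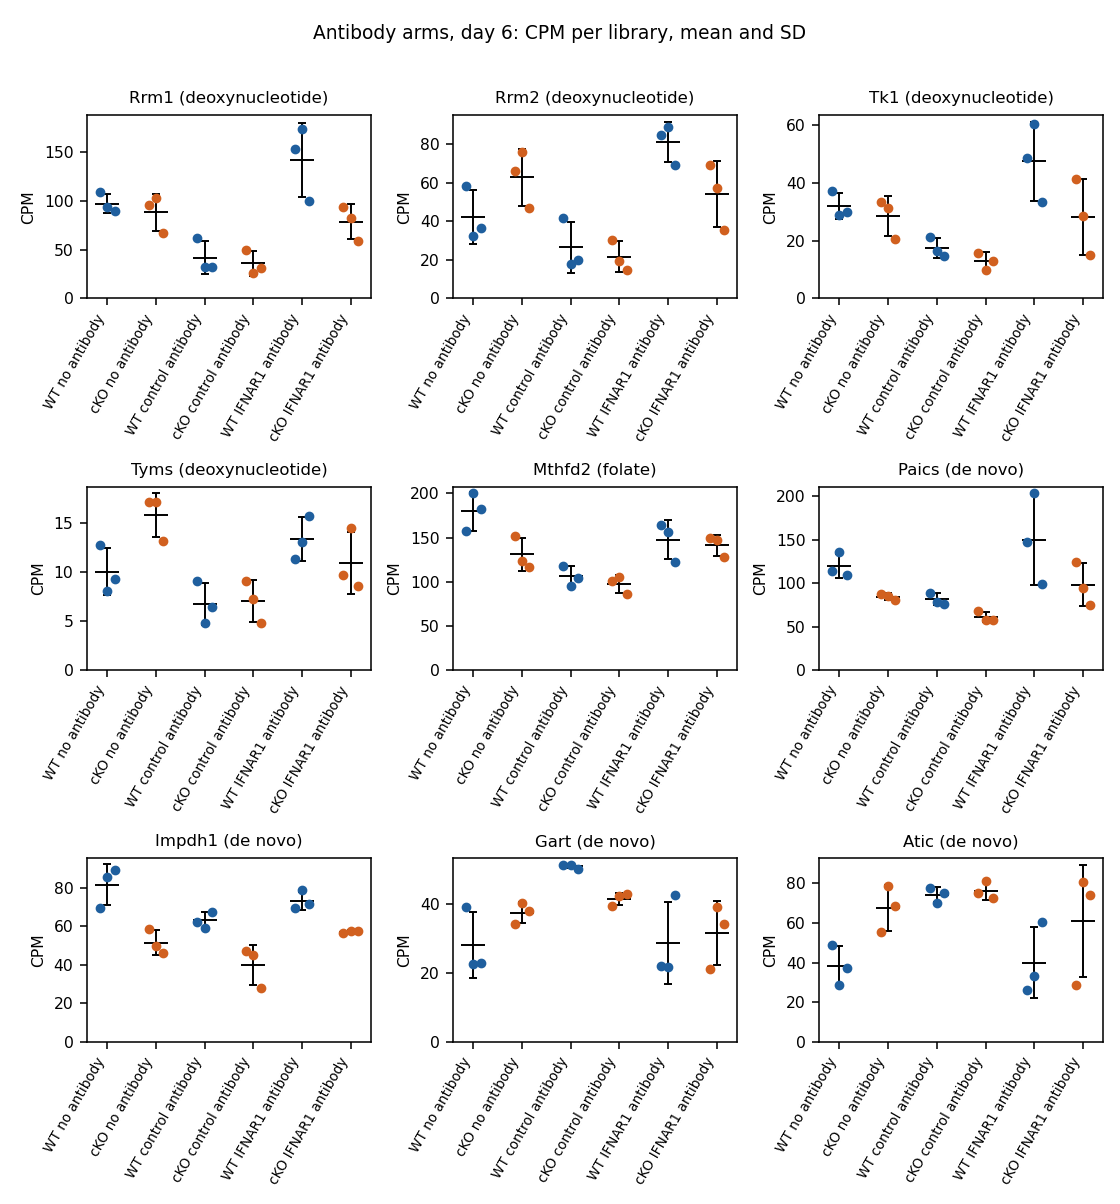
CPM (vertical axis, from 0) of 9 members in BMDMs grown with no antibody, the control antibody or the IFNAR1 antibody (horizontal axis), with blue points for WT libraries, orange points for cKO libraries and black marks for the mean and SD (n = 3). Rrm1 is lowest with the control antibody in both genotypes, and in WT cells Gart and Atic are highest there.

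In sets 1 and 3, cKO cells had 10 and 11 of the 18 de novo genes higher than WT and 2 lower in each (Impdh1 and Ctps2). In both sets 2 of 4 folate genes and 4 of 9 deoxynucleotide genes were higher, and of the 8 salvage genes Uck2 was higher and Gmpr lower. Members called higher numbered 17 in set 1, 2 in set 2 and 18 in set 3, which is 43.6%, 5.13% and 46.2%. Members called lower numbered 3, 7 and 3, which is 7.69%, 17.9% and 7.69%. Over all 18083 genes tested, 17.9%, 10.1% and 17.1% were called higher and 16.7%, 11.8% and 18.8% lower. The median log2FC of the de novo arm was 0.52, -0.11 and 0.51, of the folate arm 0.52, -0.28 and 0.64, of salvage 0.05, -0.03 and 0.05, and of the deoxynucleotide arm 0.29, 0.18 and 0.36. The difference between sets was not tested.

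Ctps moved most. It was at 23.3, 25.6 and 25.9 CPM in cKO and 7.58, 10.1 and 5.81 in WT of set 1 (log2FC 1.65, SE 0.22, adjusted p = 3.77e-06) and at 21.8, 29.3 and 24.8 and 2.81, 8.77 and 8.03 in set 3 (1.98, SE 0.23, adjusted p = 3.44e-07). In set 2 it was at 28.9, 26.7 and 27.4 in cKO and 26.5, 27.6 and 31.3 in WT (-0.04, SE 0.20, adjusted p = 0.924). The cKO libraries of the 3 sets lay between 21.8 and 29.3. Its isoenzyme Ctps2 was lower in cKO in sets 1 (-0.31, SE 0.06, adjusted p = 0.000341) and 3 (-0.33, SE 0.06, adjusted p = 0.000197). Across genes, WT libraries of sets 1 and 3 correlated with each other on log2(CPM + 1) with Pearson's r of 0.958 to 0.990 over 9 pairs, as high as within set 1 at 0.977 to 0.981, and with set 2 at most at 0.950. The results of sets 1 and 3 are therefore not counted as independent.

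Other de novo genes that were higher in cKO included Cad, at 85.1 ± 8.97 CPM against 45.6 ± 10.6 in set 1 (log2FC 0.90, SE 0.17, adjusted p = 0.00021) and 77.2 ± 6.51 against 38.4 ± 13.1 in set 3 (1.01, SE 0.17, adjusted p = 5.34e-05). Pfas was at 91.7 ± 7.72 against 52.1 ± 3.34 in set 1 (0.81, SE 0.10, adjusted p = 7.62e-07) and at 86.3 ± 8.47 against 47.5 ± 8.35 in set 3 (0.86, SE 0.10, adjusted p = 3.02e-07). Ppat, the first committed purine step, was at 34.6 ± 3.25 against 18.2 ± 4.15 in set 3 (0.93, SE 0.13, adjusted p = 5.35e-06) and at 33.1 ± 3.23 against 18.9 ± 3.08 in set 1 (0.80, SE 0.13, adjusted p = 3.99e-05). Its neighbour Paics, which starts head to head with it on chromosome 5 and overlaps it on the opposite strand, did not follow, at -0.24 (SE 0.09, adjusted p = 0.0554) in set 1 and -0.23 (SE 0.09, adjusted p = 0.0642) in set 3. Counts were taken without strand, so reads in the overlap cannot be assigned to one of them. Mthfd1 (0.71, SE 0.17 and 0.70, SE 0.17) and Shmt1 (0.65, SE 0.14 and 0.72, SE 0.14) of the folate arm were called in both sets.

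In the salvage arm, Uck2 rose and Gmpr fell in all 3 sets. Gmpr was at 6.55, 7.48 and 8.001 CPM in cKO and 12.1, 17.9 and 17.8 in WT of set 1 (log2FC -1.12, SE 0.16, adjusted p = 9e-06), at 7.45, 6.07 and 5.47 and 10.99, 9.63 and 11.6 in set 2 (-0.76, SE 0.16, adjusted p = 0.00103), and at 6.45, 7.43 and 7.56 and 11.6, 18.5 and 15.5 in set 3 (-1.08, SE 0.16, adjusted p = 1.15e-05). Uck2 was at 55.5 ± 1.95 against 29.7 ± 8.33 in set 1, 55.8 ± 2.09 against 36.7 ± 1.75 in set 2 and 51.1 ± 7.88 against 24.9 ± 8.39 in set 3 (0.89, 0.61 and 1.04, SE 0.17 each, adjusted p = 0.000235, 0.01 and 4.29e-05). WT and cKO libraries of a set did not overlap on either gene. Hprt was lower in set 2, at 144 ± 9.14 in cKO and 184 ± 2.57 in WT (-0.35, SE 0.11, adjusted p = 0.018).

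Of the deoxynucleotide genes, Dck was higher in cKO in all 3 sets, at 199 ± 8.62 CPM against 110 ± 15.7 (log2FC 0.85, SE 0.14, adjusted p = 4.87e-05), 215 ± 32.4 against 163 ± 1.96 (0.40, SE 0.14, adjusted p = 0.0414) and 204 ± 12.7 against 115 ± 30.9 (0.83, SE 0.14, adjusted p = 5.46e-05). Rrm2 was called in sets 1 and 3, at 162 ± 9.68 against 88.2 ± 20.5 (0.87, SE 0.20, adjusted p = 0.0016) and 145 ± 13.5 against 69.1 ± 29.8 (1.07, SE 0.20, adjusted p = 0.0002), and Dut as well (0.80, SE 0.21, adjusted p = 0.00471 and 0.99, SE 0.21, adjusted p = 0.00074). In set 3, WT replicate 1 was the lowest library, with Rrm2 at 36.0 against 93.7 and 77.5. Proliferation genes called higher in cKO were 12 of 24 in sets 1 and 3, all of them of the G1 and S phase part of the list such as Ccne1, Cdc6, Pcna and the Mcm genes, with Ccnb2 called lower, and 4 in set 2, which were the mitotic Ccnb1, Ccnb2, Cdc20 and Plk1. Myeloid progenitor markers summed to 132 to 161 CPM in cKO and 17.1 to 23.2 in WT of set 1, 76.8 to 86.8 and 9.40 to 26.2 in set 2, and 103 to 182 and 17.5 to 21.9 in set 3. B cell markers summed to 42.7 to 59.3 CPM in cKO and 110 to 188 in WT of set 1, 32.0 to 39.2 and 19.3 to 26.4 in set 2, and 37.6 to 58.8 and 95.0 to 192 in set 3. Neutrophil markers were at 211 to 270 and 101 to 157 in set 1, 157 to 176 and 134 to 202 in set 2, and 198 to 288 and 96.8 to 157 in set 3. The B cell sums were thus lower in cKO in sets 1 and 3 and higher in set 2, and the neutrophil sums overlapped in set 2 alone. Macrophage markers summed to 6627 to 7189 CPM in cKO and 8558 to 8944 in WT of set 2, without overlap. They overlapped in set 1, at 7055 to 7608 and 7281 to 10165, and in set 3, at 5744 to 6399 and 6348 to 8565. The part of these lists in the enzyme values was not tested.

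In set 2 the de novo arm held 5 genes called lower and none higher. Impdh1 was at 47.1, 51.6 and 48.0 CPM in cKO and 87.5, 80.8 and 86.3 in WT (log2FC -0.80, SE 0.11, adjusted p = 1.13e-05). Paics was at 145 ± 13.4 against 183 ± 5.08 (-0.33, SE 0.09, adjusted p = 0.0121) and Adssl1 at 75.5 ± 6.69 against 94.8 ± 2.24 (-0.33, SE 0.11, adjusted p = 0.0299). Impdh1 was also lower in sets 1 and 3 (-0.46, SE 0.12, adjusted p = 0.0031 in both). In set 2, 5 members were called without WT replicate 2 or 3 or cKO replicate 2. Adssl1, Dck and Gmps were among the 4 calls lost each time. Fitted alone, set 2 had 17 members called, with no share of all genes given for that fit.

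The lines that lacked a further gene differed in level. Their own comparisons with cKO are not given, because the labels do not tie each line to one of the sets. The genes named are those of the figure, chosen after their values were seen. Ctps was at 12.1 ± 1.12 CPM without Sting, 28.1 ± 1.79 without Mavs and 19.8 ± 1.49 without Irf7, beside 24.9 ± 1.45, 27.6 ± 1.14 and 25.3 ± 3.78 in cKO of sets 1, 2 and 3. Rrm2 was at 90.4 ± 4.11, 149 ± 20.7 and 134 ± 5.87, and Ppat at 20.5 ± 2.42, 37.8 ± 1.66 and 29.0 ± 2.03, so the line without Sting was the lowest for these 3. Gmpr, at 9.20 ± 1.21, 7.03 ± 0.663 and 8.45 ± 0.121, stayed below the lowest WT mean of the sets, 10.8 ± 1.03. Proliferation genes summed to 2516 to 2659 CPM without Sting, 3166 to 3598 without Mavs and 3099 to 3890 without Irf7.

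**Figure D5:**
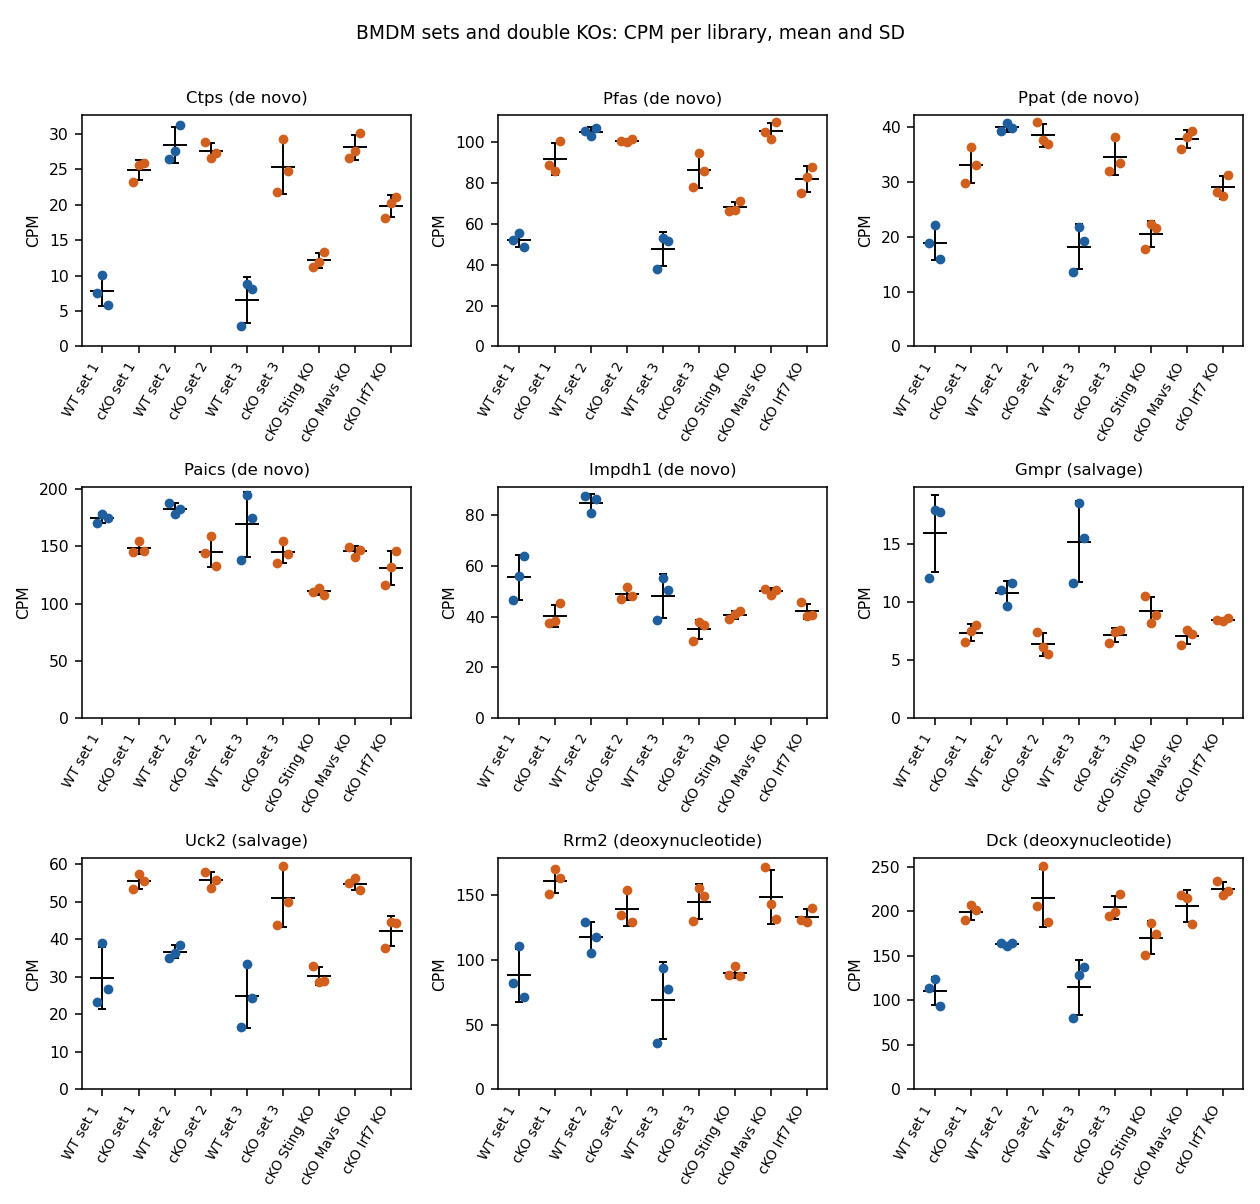
CPM (vertical axis, from 0) of 9 members in WT and cKO BMDMs of sets 1, 2 and 3 and in cKO BMDMs that also lack Sting, Mavs or Irf7 (horizontal axis), with blue points for WT libraries, orange points for the other libraries and black marks for the mean and SD (n = 3). Ctps is at similar levels in the 3 cKO groups, while WT is at 28.4 ± 2.51 in set 2 and at most 10.1 in each WT library of sets 1 and 3.

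Across the 12 genotype comparisons, which use separate libraries, Gmpr and Impdh1 were each called lower in cKO in 5 and never higher. The sets 1 and 3, not counted as independent, are both among the calls of Gmpr, Impdh1, Dck and Pfas. The fitted log2FC of Gmpr was negative in 12 of 12 (from -1.12 to -0.04), although under IFNγ its mean was 1.44 CPM in cKO and 1.30 in WT with as few as 3 counts in a library, and Impdh1 in 11 of 12 (from -0.84 to 0.31, the positive one in the peritoneum). Paics was negative in 12 of 12 with 3 calls, and Hprt in 12 of 12 with 1 call (from -0.44 to -0.02). In the other direction, Dck was positive in 11 of 12 with 3 calls and Pfas in 9 of 12 with 3 calls. These genes were singled out after their values were seen. Gmpr overlaps Atxn1 and Tk1 overlaps Afmid in the annotation, so their unstranded counts can include reads of the neighbour.

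A further list of 39 genes of nucleotide kinases, phosphatases, deaminases and transporters was followed beside the members. The genes named were chosen after their values were seen. Cmpk2, a mitochondrial pyrimidine kinase known as an interferon-stimulated gene, was called higher in cKO in 10 of the 12 genotype comparisons, among them day 3, at 122 ± 24.8 CPM against 4.60 ± 0.635 (log2FC 4.73, SE 0.84, adjusted p = 0.00211). On day 3, 4 of the 36 tested were called higher (Cmpk2, Samhd1, Pnp and Dpys) and 1 lower (Ak3), against 6.0% and 2.64% of all genes. On day 7, on day 8 untreated and over time in cKO from day 5 to 7 none of the list was called. IFNγ called 11 of 34 higher and 9 lower in WT cells. Over all genes 19.5% were called higher and 19.3% lower. Among the genes called higher, the purine nucleoside phosphorylase Pnp went from 30.5 ± 1.44 to 242 ± 9.19 (2.98, SE 0.17, adjusted p = 1.6e-06), the dNTP hydrolase Samhd1 from 201 ± 26.7 to 2078 ± 284 (3.37, SE 0.22, adjusted p = 3.44e-06) and the uridine phosphorylase Upp1, nearly absent before, from 0.209 ± 0.116 to 140 ± 31.5 (adjusted p = 3.44e-07). Among the genes called lower were the AMP deaminases Ampd2 (-0.50, SE 0.15, adjusted p = 0.0263) and Ampd3 (-1.58, SE 0.17, adjusted p = 6.21e-05). In cKO cells 11 were called higher and 7 lower, against 17.5% and 16.4% of all genes.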

How the data were processed

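The files hold counts per gene that the authors deposited after trimming with Cutadapt and alignment to mm10 with STAR, with its version not given in the sources used here. The unstranded column was used, so reads from a gene and an overlapping neighbour cannot be told apart by strand. Reads marked as ambiguous between genes entered no gene's count. Per the study's methods the authors also ran RSEM and SARTools, whose output is not used here. Each of the 5 experiments was fitted on its own with edgeR 4.0.16 (R 4.3.3), with all its groups in 1 quasi-likelihood model, TMM factors and filterByExpr (smallest count 10, total 15). Adjusted p-values are Benjamini-Hochberg over all genes tested, and a call is an adjusted p under 0.05. The fit was also run on simulated counts with the same spread for every gene. That run does not cover libraries that are unlike each other, and its result is not given here.

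The members and lists were chosen with earlier results of these data known. Every called member was named where there were at most 8, and otherwise the 3 largest changes of each arm and direction. On days 3, 5 and 7 the genes Tk1, Impdh1, Adssl1, Uprt, Gmpr, Paics, Rrm1, Rrm2, Rrm2b and Tyms were also named. Alternatives were RLE factors, no filter on low counts, DESeq2 1.42.0, a replicate block, a fit on the compared groups alone, placing the 2 conflicting libraries by either label, and leaving out each library. A block with crossed numbers was added after seeing the data. Same-numbered libraries deviated together (every correlation over 0.1) between genotypes on day 3, with 0.42, 0.13 and 0.25, for IFNγ in WT cells, with 0.45, 0.35 and 0.33, and for the control antibody in WT cells, with 0.15, 0.15 and 0.28, and also for 3 comparisons in which no member was called with or without the block. The labels call replicates biological, and p-values measure the spread between these libraries. Not every gene of the further list of pathway genes is reported here.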

Additional observations from a re-analysis of the deposited data

How the results depend on the processing

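No called member changed direction under any alternative. The shares of all genes called are those of the main fits. None stands beside the counts of the alternatives, so those counts have no background here. Without the filter on low counts the members called were 3 on day 3, 1 in cKO from day 3 to 5, 2 between genotypes under IFNγ, 2 in the peritoneum and 0 with the control antibody. With DESeq2 they were 8 on day 3, 2 on day 7, 2 and 1 in WT from day 3 to 5 and day 5 to 7, 1 for the change of the genotype effect between days 3 and 7, 1 in the peritoneum, 6 with no antibody, 13 and 5 for the IFNAR1 antibody in WT and cKO, and 8 and 7 for the control antibody in WT and cKO. RLE factors gave 4 with no antibody. The groups fitted alone gave 17 on day 3, 0 on day 5, 0 between genotypes under IFNγ, 6 with no antibody, 10 with the control antibody and 17 in set 2. The conflicting libraries placed by title gave 0 for both IFNγ responses and 0 between genotypes under IFNγ, and by library name 2 for the latter. With the replicate block the counts were 0 between genotypes under IFNγ, 6 with no antibody, 5 for the IFNAR1 antibody in cKO, and 5 and 5 for the control antibody in WT and cKO, and the block moved no other count by over 1.5 times. For IFNγ in cKO cells, numbers that may be crossed gave 25 calls in either pairing. Leaving out 1 library gave 2 to 5 on day 3, 0 to 1 on day 5, 0 to 2 on day 7, 0 to 2 in WT from day 5 to 7, 1 to 4 in cKO from day 3 to 5, 0 to 2 for the genotype effect between days 3 and 7, 0 to 14 between genotypes under IFNγ, 25 to 31 and 17 to 32 for IFNγ in WT and cKO, 0 to 11 for their difference, 0 to 1 in the peritoneum, 0 to 7, 0 to 1 and 0 to 4 between genotypes with no, control and IFNAR1 antibody, 1 to 22 and 0 to 5 for the IFNAR1 antibody in WT and cKO, 0 to 6 and 0 to 3 for the control antibody in WT and cKO, and 19 to 23, 5 to 7 and 18 to 28 in sets 1, 2 and 3. The day 8 ranges that involve cKO cells include fits that leave 1 library in a cKO group. The highest counts between genotypes under IFNγ and for the difference of the IFNγ response came from the fit without treated cKO replicate 2. In such fits the spread comes from the other groups alone, so these ranges do not measure how stable the calls are. The causes were not tested. Depth limits the low genes, Gmpr and Uck2 above all in the peritoneum.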

Other observations

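The 2 libraries with conflicting labels gave these values, with no group assigned. The one titled as the IFNγ sample held 19.1 CPM of Ctps, 8.01 of Gmpr, 119 of Rrm2, 153 of Dck and 51.1 of Gart. The one titled as the untreated sample held 0.751 CPM of Ctps, 1.07 of Gmpr, 10.6 of Rrm2, 439 of Dck and 8.37 of Gart.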
